A study of Mus musculus with 4 samples.

Results

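The transcripts described here belong to 10 mouse genes that build the egg coat, receive the sperm or encode factors that the oocyte secretes. They are *Zp1*, *Zp2* and *Zp3* of the zona pellucida, the zona protease gene *Astl*, the egg surface genes *Izumo1r* and *Cd9*, and the secreted factor genes *Oosp1*, *Gdf9*, *Bmp15* and *Fgf8*. They were chosen by gene symbol for these roles, and all 10 were found among the 55335 genes of the deposited tables. RNA of mouse oocytes of the C57BL/6 strain was amplified with Smart-Seq2, which copies full-length cDNA from very little RNA, and sequenced in 2 control and 2 mutant libraries. In the mice of the study a point mutation altered a splice site of *Ezh2* exon 3, to give a long or a short form of EZH2, the catalytic subunit of Polycomb repressive complex 2. The label of the mutants is silent on the form. The sample descriptions carry the letters MII, the usual abbreviation for metaphase II, the stage at which eggs are ovulated. Age, the number of oocytes per library and whether each library had its own donor mice are not in the labels, so p-values here cover the spread between samples, which may be technical.

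The zona pellucida is the glycoprotein coat that the growing mouse oocyte lays down around itself. ZP2 and ZP3 form its filaments, ZP1 links them, and after fertilisation the protease ovastacin, the product of *Astl*, leaves the cortical granules and cleaves ZP2 so that further sperm no longer bind. JUNO, the product of *Izumo1r*, binds IZUMO1 on the sperm, and the tetraspanin CD9 is needed on the egg for fusion. GDF9 and BMP15 are ligands of the TGF-beta family that act on the surrounding cumulus and granulosa cells, and FGF8 acts with BMP15 on cumulus glycolysis in the mouse. Transcripts of the zona genes are made during oocyte growth and decline as the mouse oocyte matures.

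The libraries held 25090032 to 26617816 counts. *Ezh2* itself was at 313 and 239 CPM (counts scaled to TMM-adjusted library sizes) in controls 1 and 2, against 176 and 223 CPM in mutants 1 and 2. Its log2 fold change of -0.47 (SE 0.20) missed the threshold (edgeR adjusted p = 0.219), and gene sums do not show its splice forms, so the genotype labels were not checked by it. Of 10 oocyte marker genes outside the members, such as *Dazl* and *Btg4*, none was at 0 in any library. The libraries were unequal in markers of other cell types. The summed level of 12 cumulus and granulosa markers was 54.3 to 65.2 CPM in the controls, 236 CPM in mutant 1 and 41.3 CPM in mutant 2. Outside mutant 1 *Cyp19a1* made the largest part of this sum. It was at 34.2 and 42.5 CPM in controls 1 and 2 and at 16.4 and 23.6 CPM in mutants 1 and 2. *Gja1*, of the same list, ran differently, at 10.9 CPM and 0 in controls 1 and 2 and at 99.3 and 7.96 CPM in mutants 1 and 2. In mutant 1 only *Lhcgr* of these 12 had no count, whereas 5 to 7 of them were at 0 in each of the other libraries. The summed level of 14 leukocyte markers was 8.42 to 8.77 CPM in the controls, 18.9 CPM in mutant 1 and 65.4 CPM in mutant 2, where *Ptprc* alone had 43.2 CPM and was at 0 in both controls. The part of these cells in the results below was not tested, and in bulk libraries fewer cells of a type and less RNA per cell cannot be told apart.

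The 10 genes covered a wide range of levels, and their order was nearly the same in every library. Levels between genes are given in TPM, the deposited unit that divides by transcript length and depth. *Oosp1*, an oocyte-secreted protein gene, was the highest, at 8252 and 8307 TPM in controls 1 and 2 and 9156 and 8456 TPM in mutants 1 and 2. By its mean it ranked 11 among all 55335 genes. *Gdf9* followed at 3030 to 3796 TPM over the 4 libraries and *Bmp15* at 1407 to 2050 TPM, ranked 37 and 82. These 3 genes held 92.4% to 95.3% of the summed TPM of the 10 genes. Their ranges did not overlap with each other or with *Zp3*, the next gene, whose mean level of 232 TPM was 7.20 times lower than that of *Bmp15*.

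The egg coat and receptor genes formed a lower tier. *Zp3* lay between 185.6 and 304 TPM, *Zp2* between 158 and 272 TPM and *Astl* between 134 and 219.7 TPM, and the range of each overlapped with that of its neighbour in this order. *Izumo1r* lay at 81.5 to 96.8 TPM, below every library of *Astl*. *Cd9* at 39.4 to 118.6 TPM and *Zp1* at 34.5 to 115.8 TPM overlapped with each other, and *Cd9* overlapped with *Izumo1r*. *Fgf8* was the lowest by far, at 2.28 to 3.74 TPM, a mean 20.4 times below that of *Zp1*.

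**Figure D1:**
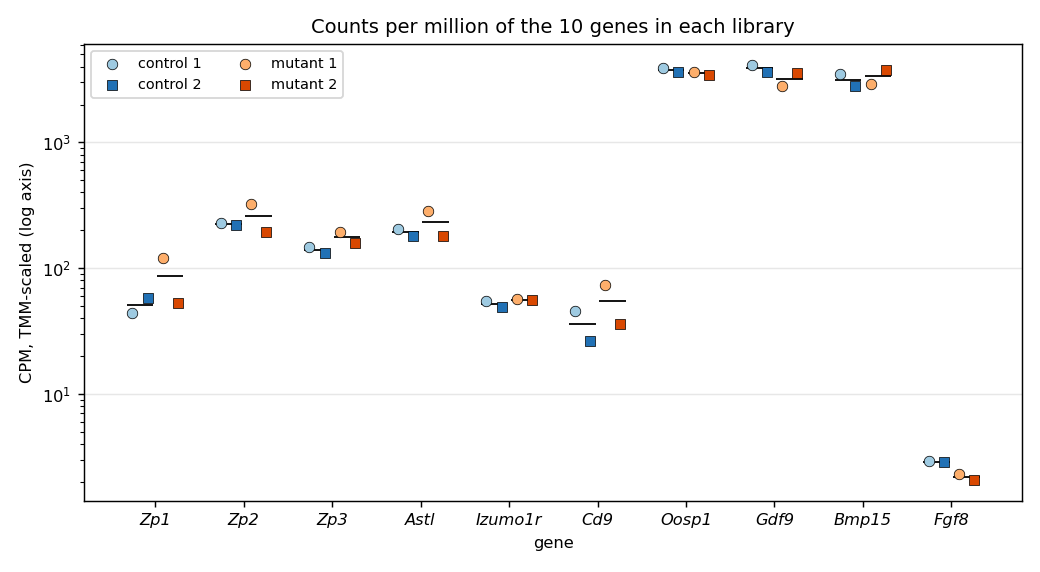
Level of each of the 10 genes in CPM (TMM-scaled, log axis) in the 2 control and 2 mutant libraries, 1 point per library, with a short line at the mean of each group. *Oosp1*, *Gdf9* and *Bmp15* sit at 2807 CPM or more in every library, and mutant 1 is the highest library for *Zp1*, *Zp2*, *Zp3*, *Astl*, *Cd9* and, narrowly, *Izumo1r*.

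None of the 10 transcripts passed the test between mutant and control oocytes in the fit of all 4 libraries. The count of members past an adjusted p of 0.05 was 0 with edgeR's quasi-likelihood test, against 3.75% of all 15493 tested genes, 1.77% higher and 1.98% lower in the mutants. At an unadjusted p under 0.05 the count was 0 as well, against 23.0% of all tested genes. That unadjusted count was 1 with DESeq2, library totals, no filter, the 10 CPM filter and the replicate block. Over all genes it was 3854 with DESeq2, where 17722 had an adjusted p, and 3555 of 15493 with library totals. With no filter 4469 of 26406 genes were under it, with the 10 CPM filter 1837 of 6541 and with the replicate block 3503 of 15493. In limma on TPM 2 members had an unadjusted p under 0.05 with either pseudocount, against 3044 and 2985 of 15493 genes. Past the adjusted threshold the count was 0 with DESeq2 (10.6% of all genes tested), limma on log2 CPM (4.76%) and the RSEM expected counts (3.89%). It was also 0 without mutant 1 (10.2%), without control 1 (0.126%) and without control 2 (0.155%). Without mutant 2 it was 1, *Zp1* (6.02%), and 4 members had an unadjusted p under 0.05. The median log2 fold change of the 10 genes was 0.16, and that of all tested genes was 0.05. The median of the 10 was -0.07 without mutant 1 and 0.29 without mutant 2. A log2 fold change was positive for 7 of the 10 and for 53.3% of all tested genes. The CPM of the groups did not overlap for 4 of the 10, *Zp3*, *Izumo1r*, *Gdf9* and *Fgf8*, and for 54.6% of all tested genes. Of these, *Zp3* and *Izumo1r* were higher in both mutants, against 28.8% of all tested genes, and *Gdf9* and *Fgf8* lower, against 25.7%. Mutant 1 was at least 1.5 times every other library for *Zp1* and *Cd9*, against 10.5%. The 95% intervals below show how large a difference the 2 libraries per group still allow.

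**Figure D2:**
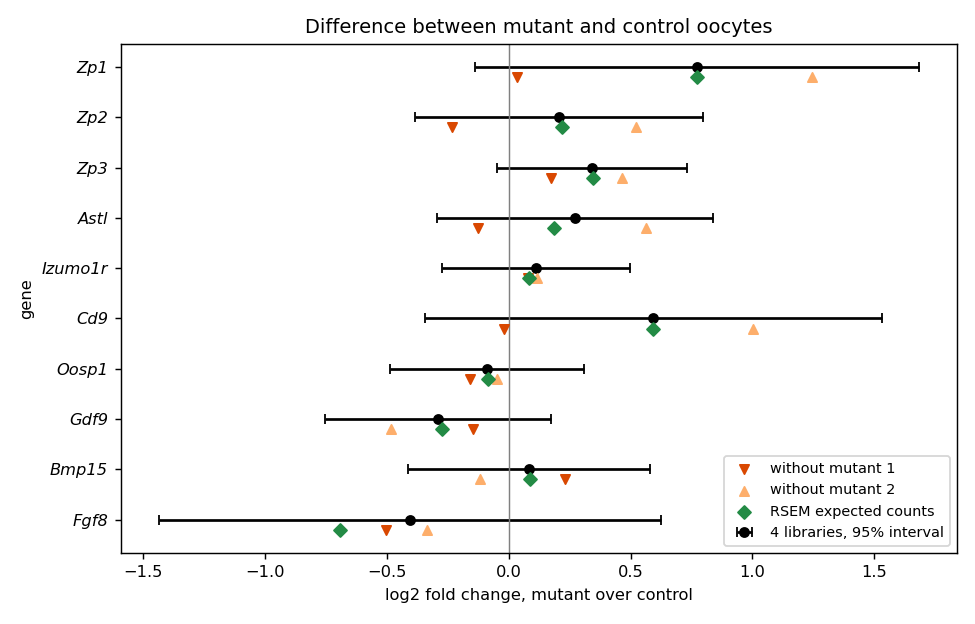
Log2 fold change of each gene, mutant over control, from the edgeR fit of the 4 libraries (black points, with 95% intervals) and from fits without mutant 1, without mutant 2 and with the RSEM expected counts. Every interval spans 0, and *Zp1* and *Cd9* move from near 0 without mutant 1 to 1.24 and 1.003 without mutant 2.

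Among the zona genes, *Zp1* had the largest fold difference between the groups. It (chr19:10914287-10920632 in mm10, minus strand) was at 44.0 and 57.8 CPM in controls 1 and 2, against 121 and 52.6 CPM in mutants 1 and 2. Mutant 2 lay inside the control range and mutant 1 above it, so the groups overlapped. The log2 fold change was 0.77 (SE 0.38, 95% interval -0.14 to 1.69), short of the threshold (edgeR adjusted p = 0.281). Without mutant 2 the log2 fold change was 1.24 with an adjusted p of 0.0297, a call against 6.02% of all genes in that fit, and without mutant 1 it was 0.03. Over all alternatives the adjusted p of *Zp1* lay between 0.0297 and 0.969.

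*Zp2*, which encodes the zona protein that sperm bind in the mouse (chr7:120126772-120145291, minus strand), was at 230.6 and 219.8 CPM in the controls, against 326 and 194 CPM in mutants 1 and 2. The mutant libraries lay on either side of the controls. The fitted log2 difference was 0.21 (SE 0.25, 95% interval -0.38 to 0.80, edgeR adjusted p = 0.672), and it was -0.23 without mutant 1.

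*Zp3*, the gene of the other filament protein (chr5:135980099-135988624, plus strand), was at 148 and 131 CPM in the controls, against 194 and 159 CPM in the mutants. Both mutant libraries lay above both controls. The means were 139 ± 11.96 and 176 ± 24.6 CPM (SD, n = 2 each), a 1.27-fold difference with a 95% interval of 0.966 to 1.66 that did not pass the test (log2 fold change 0.34, SE 0.16, edgeR adjusted p = 0.271). *Zp3* had the narrowest interval of the zona genes, and a difference above 1.66-fold lay outside it.

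*Astl* had its highest level in the same library as *Zp2*, whose product ovastacin cleaves. It (chr2:127338639-127357651, plus strand) was at 205 and 179.8 CPM in the controls, against 286 and 179 CPM in mutants 1 and 2, so that mutant 2 was level with control 2 and mutant 1 stood above the rest. Its log2 fold change was 0.27 (SE 0.24, 95% interval -0.29 to 0.84, edgeR adjusted p = 0.546), and -0.12 without mutant 1. The ratio of *Astl* to *Zp2*, enzyme to substrate, stayed at 0.891 and 0.816 in the controls, against 0.807 and 0.884 in the mutants in TPM, and the groups overlapped.

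*Izumo1r*, the sperm receptor gene, varied least of the egg coat and receptor genes. It (chr9:14885814-14903949, minus strand) was at 54.6 and 49.4 CPM in the controls, against 56.8 and 55.6 CPM in the mutants. The mutants lay above the controls, but by less than the gap between the controls. The log2 fold change was 0.11 (SE 0.16), and the 95% interval of the fold was 0.827 to 1.41 (edgeR adjusted p = 0.734). In TPM the controls were at 81.53 and 81.48 and the mutants at 96.4 and 96.8. With limma on log2 TPM the log2 fold change of *Izumo1r* was 0.243 with a pseudocount of 1 and 0.245 with 0.1 (limma adjusted p = 0.181 and 0.172). The median log2 fold change of all tested genes was 0.05 and 0.11 higher in these fits than in the edgeR fit.

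*Cd9*, the tetraspanin gene, had the widest interval of the egg coat and receptor genes. It (chr6:125460266-125494791, minus strand) was at 45.9 and 26.5 CPM in the controls, against 73.0 and 36.2 CPM in mutants 1 and 2, so mutant 2 lay between the controls. The log2 fold change was 0.59 (SE 0.39, 95% interval -0.34 to 1.53, edgeR adjusted p = 0.417), and it was -0.02 without mutant 1. *Cd9* is also expressed by many somatic cells. It was 2.02-fold higher in mutant 1 than in mutant 2 and 1.73-fold higher in control 1 than in control 2. The cumulus gene *Gja1* was also higher in mutant 1 than in mutant 2, at 99.3 and 7.96 CPM. In controls 1 and 2 it was at 10.9 CPM and 0. *Cyp19a1*, of the same marker list, went the other way in both groups. It was at 16.4 and 23.6 CPM in mutants 1 and 2 and at 34.2 and 42.5 CPM in controls 1 and 2. The part of such cells in the level of *Cd9* was not tested.

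**Figure D3:**
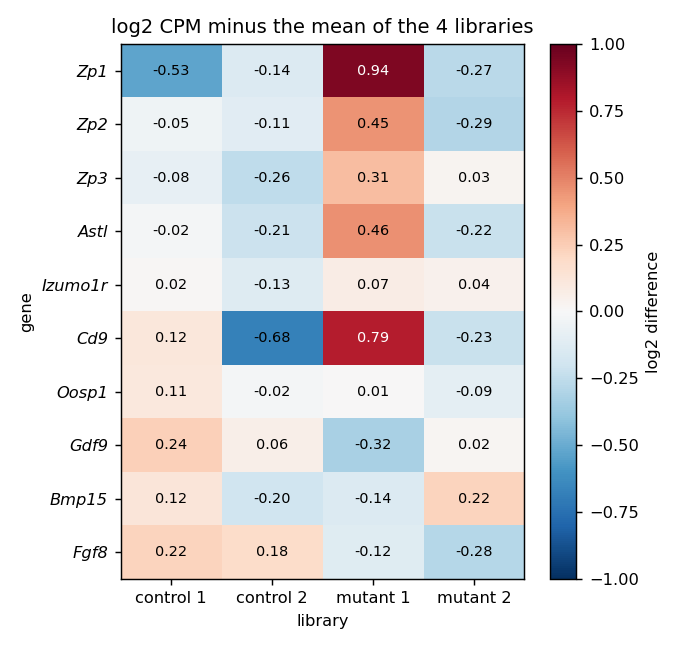
Log2 CPM of each gene in each library minus the mean of its 4 libraries. Mutant 1 is above the mean for *Zp1* (0.94), *Cd9* (0.79), *Astl* (0.46), *Zp2* (0.45) and *Zp3* (0.31) and below it for *Gdf9* (-0.32), *Bmp15* (-0.14) and *Fgf8* (-0.12).

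The egg coat and receptor genes had their highest library in common, and for *Zp3* and *Izumo1r* both mutants were also above both controls under all 6 scalings. All of *Zp1*, *Zp2*, *Zp3*, *Astl*, *Izumo1r* and *Cd9* had their highest CPM in mutant 1, which makes 6 of the 10 genes against 30.0% of all tested genes. For *Zp1*, *Zp2*, *Zp3*, *Astl* and *Cd9* this held under all 6 scalings computed, and for *Izumo1r* under 4, with mutant 2 the highest in TPM and with upper quartile scaling. Among *Gdf9*, *Bmp15*, *Fgf8* and *Oosp1*, only *Oosp1* was highest in mutant 1 under any of them, in TPM and with library totals. Mutant 1 was 2.31-fold above mutant 2 for *Zp1*, 1.68-fold for *Zp2*, 1.60-fold for *Astl*, 1.22-fold for *Zp3* and 1.02-fold for *Izumo1r*, whereas for *Gdf9* and *Bmp15* it was at 0.788 and 0.779 of mutant 2. Mutant 1 was also the library with the highest summed cumulus markers, whose part in these levels was not tested.

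The sequence before the start of transcription is shown for a zona gene, for the gene of its protease and for a ligand gene, because the first pair was highest in mutant 1 and the last was not. The RefSeq table for GRCm38.p6 (mm10) held an entry for 6 of the 10 genes, *Zp3*, *Astl*, *Izumo1r*, *Cd9*, *Oosp1* and *Bmp15*. In the mouse, FIGLA with a partner binds E-boxes (CANNTG) before the zona genes, and NOBOX binds the sequence TAATTA, or its variant TAATTG, before oocyte genes. Each line gives the 250 bases before the RefSeq start, read 5′ to 3′ on the strand of the gene, at the GENCODE start for *Astl*, which has 2 RefSeq starts, and with every match to these motifs in capitals.
Zp3, chr5:135979855-135980104, plus strand: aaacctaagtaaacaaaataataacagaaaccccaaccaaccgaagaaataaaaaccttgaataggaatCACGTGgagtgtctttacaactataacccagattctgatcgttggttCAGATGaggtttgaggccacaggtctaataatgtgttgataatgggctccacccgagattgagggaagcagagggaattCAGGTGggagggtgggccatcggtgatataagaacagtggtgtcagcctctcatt
Astl, chr2:127338389-127338638, plus strand: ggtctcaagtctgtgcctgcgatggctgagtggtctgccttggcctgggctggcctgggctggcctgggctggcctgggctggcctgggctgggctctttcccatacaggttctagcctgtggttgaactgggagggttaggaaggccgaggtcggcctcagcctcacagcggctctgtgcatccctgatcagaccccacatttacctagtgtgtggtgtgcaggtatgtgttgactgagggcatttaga
Bmp15, chrX:6320725-6320974, minus strand: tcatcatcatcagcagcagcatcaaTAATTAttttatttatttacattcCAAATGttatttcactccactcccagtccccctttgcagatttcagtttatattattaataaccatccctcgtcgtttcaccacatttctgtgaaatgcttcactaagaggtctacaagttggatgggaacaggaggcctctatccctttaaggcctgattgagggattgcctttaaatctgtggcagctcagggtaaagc

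The *Zp3* window held 3 E-boxes, which begin 181, 134 and 55 bases before the start, *Bmp15* held 1 E-box and 1 TAATTA, and the *Astl* window held no match. CANNTG reads the same on both strands and was found in 5 of the 6 genes with an entry, all but *Astl*, and in 66.2% of 32851 windows of this length. Its form CAGGTG, searched on both strands and contained in CANNTG, was found in *Zp3*, *Izumo1r*, *Cd9* and *Oosp1*, 4 of 6, against 17.2% of the windows. TAATTA, the same on both strands, was found in *Bmp15* and in 4.84% of the windows, and TAATTG, searched on both strands, in none of the 6 and in 7.17%. The *Zp3* and *Astl* windows thus shared no searched motif. The *Zp3* window shared CAGGTG with *Izumo1r* and *Cd9*, also highest in mutant 1 by CPM, and with *Oosp1*, highest in control 1. *Zp1* and *Zp2* had no entry, and the part of these motifs in the levels was not tested.

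Of the secreted factors, *Oosp1* was the most even across the libraries. It (chr19:11667460-11691150, minus strand) was at 3925 and 3597 CPM in the controls, against 3660 and 3415 CPM in the mutants, and the groups overlapped. The log2 fold change was -0.09 (SE 0.17), and the 95% interval of the fold was 0.713 to 1.24 (edgeR adjusted p = 0.801). Its direction depended on the scaling, since it was 0.01 with library totals and 0.09 in TPM. In TPM both mutants lay above both controls, at 9156 and 8456 TPM against 8252 and 8307 TPM. *Oosp1* and *Zp1* lie on the same chromosome, 19, 746828 bases apart in mm10.

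*Gdf9*, the gene of growth differentiation factor 9 (chr11:53431023-53437904, plus strand), was at 4144 and 3648 CPM in the controls, against 2807 and 3562 CPM in mutants 1 and 2. Both mutants lay below both controls, mutant 2 only slightly. The means were 3896 ± 351 and 3185 ± 534 CPM (SD, n = 2 each), with a log2 fold change of -0.29 (SE 0.19, 95% interval -0.75 to 0.17) that missed the threshold (edgeR adjusted p = 0.421). In TPM the groups overlapped, with mutant 2 the highest library at 3796 TPM.

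*Bmp15*, the gene of the paralogous ligand with which GDF9 acts (chrX:6314107-6320721, minus strand), was at 3505 and 2810 CPM in the controls, against 2929 and 3760 CPM in the mutants. On this scale the groups overlapped. The fitted log2 difference was 0.08 (SE 0.21, 95% interval -0.41 to 0.58, edgeR adjusted p = 0.857). In TPM both mutants lay above both controls, mutant 1 only slightly, at 1626 and 2050 TPM against 1609 and 1407 TPM.

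Set against each other in TPM, the ligand genes separated the groups, as *Bmp15* alone did in TPM and *Gdf9* alone in TMM-scaled CPM. Neither did so alone on every scale. The ratio of *Gdf9* to *Bmp15* in TPM was 2.28 and 2.50 in the controls, against 1.86 and 1.85 in the mutants. The mutant ratios were close together and below both controls. On the log2 scale the means were 1.26 ± 0.0930 and 0.893 ± 0.00649 (SD, n = 2 each), a difference of -0.36. With 2 against 2 libraries the two-sided exact permutation test cannot go below p = 0.333, which this ratio reached, and adjusted over the 6 ratios computed it was 0.800. The ratio to *Bmp15* did not overlap between the groups for 44.3% of 12797 tested genes with a value in every library, and was lower in both mutants for 26.6%, so a separation of this kind was common in these libraries.

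**Figure D4:**
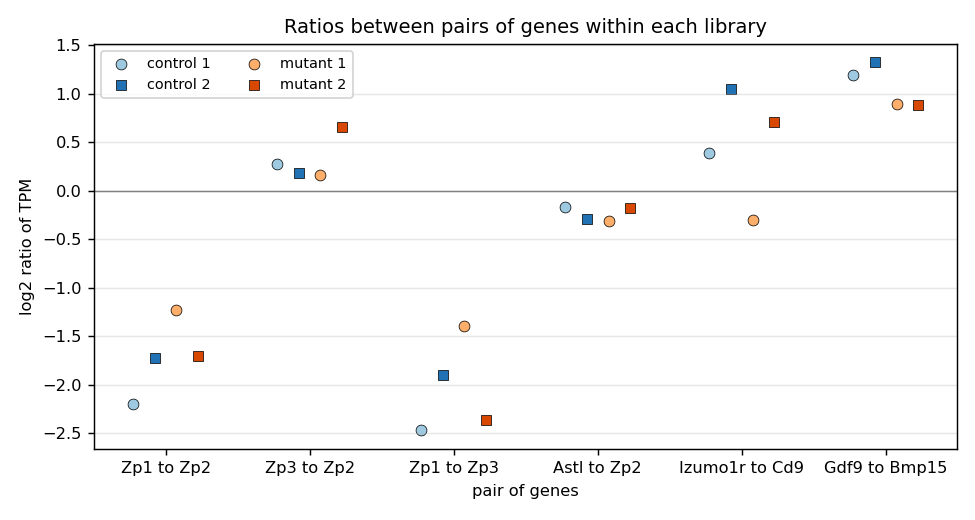
Log2 ratio of TPM between pairs of genes in each library, 1 point per library. The ratio of *Gdf9* to *Bmp15* is at 1.19 and 1.32 in the controls and at 0.90 and 0.89 in the mutants, while the ratio of *Astl* to *Zp2* overlaps between the groups.

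The composition of the zona transcripts also varied by library. *Zp1* made up 8.98% and 12.4% of the summed TPM of the 3 zona genes in controls 1 and 2, and 16.7% and 10.6% in mutants 1 and 2. *Zp3* made up 49.8% and 46.5% in the controls, against 43.9% and 54.7% in the mutants, and *Zp2* 41.2% and 41.1% against 39.3% and 34.7%. The ratio of *Zp1* to *Zp2* was 0.218 and 0.303 in the controls, against 0.426 and 0.307 in the mutants, which did not overlap, but control 2 and mutant 2 were almost level (two-sided exact permutation test, p = 0.333, the smallest that 2 against 2 allows). The ratio to *Zp2* did not overlap between the groups for 39.9% of 12797 tested genes, and was higher in both mutants for 15.1%. The ratios of *Zp3* to *Zp2*, *Zp1* to *Zp3* and *Izumo1r* to *Cd9* overlapped between the groups.

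*Fgf8* was measured with little depth. It (chr19:45736798-45742915, minus strand) was covered by 73 and 72 control counts, against 65 and 55 mutant counts, or 2.94, 2.86, 2.31 and 2.07 CPM. Both mutants were below both controls, but the log2 fold change of -0.41 (SE 0.43) had a 95% interval of -1.44 to 0.63 (edgeR adjusted p = 0.630), the widest of the 10. The matrix held 1.53 to 2.20 times as many *Fgf8* counts as the RSEM tables, whereas for the other 9 genes the ratio was 1.03 to 1.12. No annotated gene overlaps *Fgf8* in GENCODE M21, and of the members only *Cd9* is overlapped, by genes on the opposite strand with at most 5 counts in a library.

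Transcripts of other genes around these processes were counted by list. Of 16 other genes of sperm binding, fusion and the GPI anchor that holds JUNO, 15 were tested and 0 passed with edgeR or limma. With edgeR 5 had an unadjusted p under 0.05 and the median log2 fold change was 0.60. With DESeq2 3 were higher. The members of this list with the highest CPM were the integrin genes *Itga9*, at 916 and 823 CPM in the controls and 609.6 and 785.5 CPM in the mutants, and *Itga6*, at 637 and 600.0 against 536 and 602 CPM, and neither passed (edgeR adjusted p = 0.340 and 0.683). Of 15 genes of cortical granule transport and release, the compartment that stores ovastacin, 14 were tested, and with edgeR 1 fell and none rose (median 0.08). With limma 1 fell, with DESeq2 1 rose and 1 fell (median -0.01), and without mutant 2 edgeR called 1 higher and none lower. The gene that fell was *Vamp3*, a vesicle SNARE gene, from 153 and 131 CPM to 83.4 and 72.2 CPM (log2 fold change -0.87, SE 0.16, edgeR adjusted p = 0.0439). The groups of *Vamp3* did not overlap, and its adjusted p was 0.309 without control 1, 0.237 without control 2 and 0.0890 without mutant 2. It passed under 9 of 16 alternatives, with adjusted p-values from 0.000148 to 0.309, and not with library totals, upper quartile scaling or TPM.

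Of 18 other ligand genes of the TGF-beta and FGF families and *Kitl*, 9 were tested, and with edgeR 1 fell and none rose (median -0.09). With limma 1 fell, with DESeq2 2 fell, and without mutant 2 edgeR called 2 higher and none lower (median 0.05). The gene that fell was *Kitl*, the KIT ligand gene that granulosa cells and oocytes express, from 38.6 and 32.4 CPM to 17.8 and 15.3 CPM (log2 fold change -1.10, SE 0.21, edgeR adjusted p = 0.0468). It passed under 9 of 16 alternatives (adjusted p from 0.000446 to 0.335), and not with library totals, upper quartile scaling or TPM, nor without control 1 (0.335), control 2 (0.268) or mutant 2 (0.0820). Of 26 receptor, SMAD and feedback genes of these ligands, 19 were tested, and 1 rose and none fell with each of edgeR, limma and DESeq2 (edgeR median 0.13). The gene that rose was *Tgfbr2*, a type II receptor gene, with 2 counts in the controls together and 183 in the mutants, a ratio of 83.5 (22.8 to 694 as its 95% counting interval). It was at 1.14 CPM in mutant 1 and 5.67 CPM in mutant 2. The leukocyte markers differed in direction between these libraries. *Ptprc* was at 0.107 and 43.2 CPM in mutants 1 and 2, and *Lyz2* at 8.03 and 3.83 CPM. The part of leukocytes in the level of *Tgfbr2* was not tested. Leaving out either control or mutant 2 ended the call (edgeR adjusted p = 0.337, 0.332 and 0.0986), as did limma on TPM, and over 15 alternatives the adjusted p ran from 2.18e-08 to 0.379.

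None of 5 tested proprotein convertase genes passed with edgeR or limma, 1 had an unadjusted p under 0.05, and 1 was higher with DESeq2. Their edgeR median was 0.37 on the matrix counts and -0.01 on the RSEM expected counts. *Furin*, which cleaves precursors of zona and growth factor proteins, was at 10.8 and 17.1 CPM in the controls and 21.02 and 15.3 CPM in the mutants, and *Pcsk5* at 7.45 and 4.44 against 38.0 and 8.90 CPM. Both were highest in mutant 1. The log2 fold change of *Furin* was 0.37 from the matrix counts and -0.41 from the RSEM expected counts (edgeR adjusted p = 0.534 and 0.565). That of *Pcsk5* was 1.98 and 2.10 (edgeR adjusted p = 0.143 and 0.111). None of 7 tested transcription regulators passed with edgeR, DESeq2 or limma, and 2 had an unadjusted p under 0.05 (median -0.05). *Nobox* was at 34.3 and 55.0 CPM in the controls and 56.2 and 38.6 CPM in the mutants, and *Lhx8* at 33.7 and 66.7 against 53.7 and 43.1 CPM.

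Of 8 genes that oocyte-secreted factors are known to induce in mouse cumulus cells, 7 were tested and 0 passed with edgeR or limma. With edgeR 4 had an unadjusted p under 0.05 and the median was 3.24. With DESeq2 2 were higher. All 7 were highest in mutant 1. *Ptx3*, a gene of the cumulus matrix, was at 1.77 CPM and 0 in controls 1 and 2 and at 52.7 CPM and 0 in mutants 1 and 2, and *Ldha*, a glycolysis gene, at 2.50 CPM and 0 against 35.2 and 15.9 CPM. Of the 5 tested cumulus markers 0 passed with edgeR or limma, 1 had an unadjusted p under 0.05 and 1 was lower with DESeq2. Their edgeR median of 3.27 was -0.61 without mutant 1. *Cyp19a1*, the aromatase gene, was at 34.2 and 42.5 CPM in the controls and 16.4 and 23.6 CPM in the mutants (edgeR adjusted p = 0.0864). Of the 4 tested leukocyte markers *Lyz2* rose, from 0.362 and 0.0397 CPM to 8.03 and 3.83 CPM (log2 fold change 4.85, edgeR adjusted p = 0.0437). With DESeq2 its adjusted p was 6.82e-06. It did not pass with library totals (edgeR adjusted p = 0.0524) or TPM (limma adjusted p = 0.149 and 0.168 with pseudocounts of 1 and 0.1). Leaving out control 1 or control 2 also ended the call, with log2 fold changes of 7.05 and 3.96. The edgeR median of this list was -0.04. Of 4 tested stroma and oviduct markers 0 passed with edgeR or limma, 2 had an unadjusted p under 0.05 and 1 was higher with DESeq2. Their median was 0.98 with edgeR and 3.80 with DESeq2. *Ovgp1*, an oviduct gene, was at 0.443 and 0.675 CPM in the controls and 15.7 and 1.503 CPM in the mutants, and *Dcn*, a stroma gene, at 6.60 and 5.99 against 6.11 and 1.80 CPM. The 10 oocyte markers had 0 past the threshold with edgeR and 3 with an unadjusted p under 0.05, and their edgeR median was -0.12. With limma 1 was higher, and with DESeq2 1 was higher and 1 lower. *Btg4* was at 14365 and 11453 CPM in the controls and 11185 and 13006 CPM in the mutants, and *Dazl* at 2379 and 1830 against 1821 and 2007 CPM. The edgeR counts of these lists, from sperm binding to oocyte markers, changed when a mutant library was left out, except for the transcription regulators. The cortical granule, ligand and receptor lists are left aside here. Without mutant 2 edgeR called 3 genes of sperm binding and fusion, 3 induced cumulus genes, 2 cumulus markers, 1 convertase, 1 leukocyte marker, 1 stroma and oviduct marker and 1 oocyte marker, all higher. Without mutant 1 it called 1 gene of sperm binding and fusion, 3 leukocyte markers and 1 oocyte marker higher, 1 induced cumulus gene in each direction, and 2 stroma and oviduct markers higher and 1 lower.

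**Figure D5:**
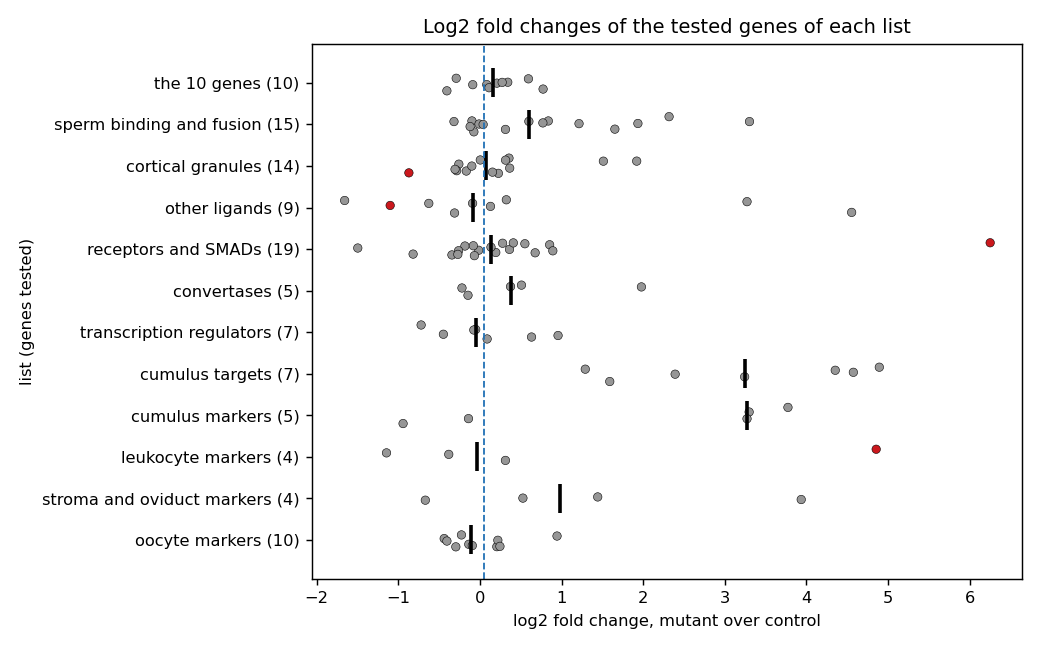
Log2 fold change, mutant over control, of each tested gene of each list, with genes past the edgeR threshold in red, the median of each list as a black line and the median of all tested genes (0.05) as a dashed line. The 10 genes lie between -0.41 and 0.77, and *Vamp3*, *Kitl*, *Tgfbr2* and *Lyz2* are the genes past the threshold.

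The genes whose pattern over the 4 libraries was most like the mean of the 9 members with at least 10 CPM were *Adcy9*, *Kmt2b* and *Nmt2*. Likeness was measured as the distance between log2 CPM values centred on the mean of each gene, over 6523 candidate genes, and was 0.0384, 0.0423 and 0.0621 for these 3. The mean pattern was -0.01, -0.19, 0.28 and -0.09 in controls 1 and 2 and mutants 1 and 2. *Adcy9*, an adenylyl cyclase gene, was at 14.8 and 13.3 CPM in the controls and 18.7 and 14.5 CPM in the mutants. The distances of the members themselves ran from 0.153 for *Zp3* to 0.849 for *Zp1*, so the mean describes few of them well.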

How the data were processed

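RNA of 4 mouse oocyte libraries was grouped by the sample titles into control and mutant, with 2 each, and replicate numbers come from the same titles. Cutadapt 1.16, STAR, RSEM and the mm10 build are named in the submitters' processing notes; their roles and settings, and the strand of counting, were not given in the sources used here. For the whole series the authors deposited raw counts per gene. Per the file headers they also deposited expected counts, TPM, FPKM and gene lengths in bases for each library as RSEM output, where reads that map to several genes are divided between them.

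Testing of the counts used edgeR 4.0.16 under R 4.3.3 (TMM, filterByExpr, glmQLFit, glmQLFTest, genotype as the only term) over 15493 genes, with Benjamini-Hochberg adjustment over all of them and a threshold of 0.05. The fit had 2 residual degrees of freedom and a common biological coefficient of variation of 0.353. The SE is the log2 fold change divided by the square root of F, and the 95% interval uses the t distribution with the total degrees of freedom of the fit. Levels between genes use TPM. Group differences of ratios use two-sided exact permutation tests (SciPy 1.17.1). Alternatives were DESeq2 1.42.0, limma 3.58.1 on log2 CPM and on log2 TPM with pseudocounts of 1 and 0.1, other scalings and filters, rounded expected counts, a replicate block and each library left out. The edgeR script was tested on simulated data.

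The members, the lists and the tests were chosen with earlier results of these data known. Genes named from a list are up to 4 past the threshold with the smallest adjusted p, or otherwise the 2 with the highest mean CPM, which does not divide by length. *Ezh2* was named as the mutated gene and 3 genes as those nearest to the mean pattern of the members, and *Ptprc* and *Lhcgr* were named after their values were seen. Positions are from GENCODE M21 in mm10, which matched 55154 of 55335 gene IDs. Intervals of counts cover counting error only, since amplified reads are not independent molecules.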

Additional observations from a re-analysis of the deposited data

How the results depend on the processing

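No alternative that kept all 4 libraries gave a call for any of the 10 genes. Of 119 log2 fold changes under those 12 alternatives, 116 kept their direction and 3 reversed, all of *Oosp1*, which was 0.0064 with library totals and 0.0878 in TPM with either pseudocount. With a library left out, 1 gene passed, *Zp1* without mutant 2. The log2 fold changes then ranged from 0.0319 to 1.24 for *Zp1*, -0.23 to 0.52 for *Zp2*, -0.12 to 0.56 for *Astl*, -0.0214 to 1.03 for *Cd9*, -0.00695 to 0.18 for *Izumo1r* and -0.12 to 0.24 for *Bmp15*. The difference in the *Astl* to *Zp2* log2 ratio, -0.01, was 0.078 from CPM per effective length, and ranged from -0.0792 to 0.0509 with a library left out, an alternative added for ratios after seeing the data. Under it the *Zp3* to *Zp2* difference ranged from -0.0659 to 0.43 and the *Zp1* to *Zp3* difference from -0.17 to 0.79. The cause of these reversals was not tested. *Fgf8* was not tested under the filter of 10 CPM on the mean.

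Of all genes 581 passed, 1322 with no filter, 1886 with DESeq2, 113 at an adjusted p under 0.01 and 1721 under 0.1. On log2(TPM + 1) limma called 0 genes, with 3044 at an unadjusted p under 0.05, and on log2(TPM + 0.1) it called 116. The count was 22 to 1688 with a library left out, lowest without a control and highest without mutant 1. With the replicate block 1213 genes and 0 members passed. Among the lists the block called 4 induced cumulus genes higher, with *Ptx3* and *Ldha* among them (edgeR adjusted p = 0.00105 and 0.00569), 3 cumulus markers higher and 1 lower (*Gja1* 0.00533, *Cyp19a1* 0.0411), *Pcsk5* (0.0271), 1 gene of sperm binding and fusion and 1 oocyte marker higher, and 2 ligand genes higher and 1 lower. The deviations of control 1 and mutant 1 correlated at 0.176 over 15493 genes. With 2 pairs and no label that ties the numbers to an animal or batch, the samples were not taken as paired. *Fgf8* had the fewest counts of the 10 genes.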

Other observations

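*Oosp2*, a neighbour and relative of *Oosp1* on chromosome 19, gave different directions in the deposited units. Its matrix counts were 624 and 494 in the controls, against 1196 and 997 in the mutants, whereas its TPM were 101.94 and 98.45 in the controls, against 93.14 and 85.11 in the mutants. The RSEM length of *Oosp2* was 544 and 516 bases in the controls and 675 and 662 bases in the mutants, and the matrix held 1.44 times the RSEM counts in both controls and 2.09 and 2.10 times in the mutants. For *Oosp1* that ratio was 1.06 to 1.07 in the 4 libraries, and for *Oosp3*, another relative, 0.700 to 0.827. *Oosp2* was singled out after its values were seen, and the cause was not tested.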
